A study of Caenorhabditis elegans with 2 samples.

Results

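Fatty acid elongases are the enzymes that lengthen acyl chains, and the genes elo-1 to elo-9 encode this family in Caenorhabditis elegans. Members were found by matching the systematic name of each array probe to these 9 gene symbols. Probes were found for 8 of the 9 genes, and no probe on the arrays matched elo-8. The 8 genes carried 12 probes in all, 3 each for elo-1 and elo-7 and 1 for each of the other 6, out of 19807 genes that could be named. The scanner software flagged all 12 probes as well above background for both diets, so all 8 genes count as measured, among 15301 measured genes.

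The RNA came from whole bodies of N2 worms at the young adult stage. The first group was raised on Escherichia coli OP50, the standard laboratory food and the control here, and the second on a soil isolate of Lysinibacillus sphaericus, which is Gram-positive. Both groups received their bacterium from hatching to young adulthood at 20 °C, and no mutant allele, transgene or added agent is named for either. Each diet has 1 array and no replicate, so no test was run, no p-value is given, and every difference describes these 2 RNA preparations. RNA from whole worms cannot tell fewer cells of a type from less RNA per cell.

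An elongase carries out the first step of a cycle, condensing an acyl-CoA with malonyl-CoA, after which a ketoacyl-CoA reductase, a hydroxyacyl-CoA dehydratase and an enoyl-CoA reductase complete the longer chain. In C. elegans ELO-1 is known for lengthening polyunsaturated chains, a step towards arachidonic and eicosapentaenoic acids, and ELO-2 for lengthening palmitic acid. ELO-5 and ELO-6 are known for building the monomethyl branched-chain fatty acids, which the worm makes from branched amino acid precursors and needs for growth. Less is established for the other members, and no role is given for them here.

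The arrays differed in overall brightness, with a median processed signal of 246.2 on the OP50 array and 368.3 on the L. sphaericus array, and with 76.1% and 75.5% of 43803 non-control spots well above background. The 75th percentile of the signal was 1440 and 3368, so each array was scaled to its own 75th percentile, and every difference given is that of the L. sphaericus array minus the OP50 array, in log2 units after that scaling unless stated. Over all measured genes the median of this difference was −0.20. Of all measured genes, 22.1% were higher on the L. sphaericus array by 2-fold or more and 32.6% were lower by as much. The SD of the difference was 0.15 over repeated spots of a probe (33 probes), and the median SD between probes of a gene was 0.18 (2761 genes with at least 3 probes). These SDs are technical and leave out the spread between worm populations. Markers of 7 tissues and cell classes were measured to set the elongases in context, and 43 of the 48 were well above background on both arrays. The early embryo genes end-1, tbx-37 and tbx-38 were well above it on the L. sphaericus array only, while vit-3 and peel-1 had no matched probe.

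The processed signal of elo-2, the palmitic acid elongase gene, was 2894 ± 289 (scanner error, 1 spot) on the OP50 array and 52280 ± 5228 on the L. sphaericus array. The probe moved from percentile 84.1 to percentile 97.0 of brightness among all probes. After scaling, elo-2 was 7.72-fold higher on the L. sphaericus array, a log2 difference of 2.95. This was the highest value of the family and ranked 299th of the 15301 measured genes. It was the only elongase at least 2-fold higher, 1 of 8 members against 22.1% of all genes.

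In the opposite direction, all 3 probes of elo-7 were dimmer on the L. sphaericus array, although that array was the brighter one. The first had a signal of 233.2 on the OP50 array and 117.2 on the L. sphaericus array. The second gave 345.2 and 158.0, and the third 360.6 and 157.6. The probes agreed closely, with scaled differences of −2.22, −2.35 and −2.42, and the gene was 5.11-fold lower (log2 −2.35 ± 0.10, SD over 3 probes). These signals lay between 4.55 and 6.13 times the lowest signal well above background on the L. sphaericus array, so they were dim there but above the limit of detection. It was the only elongase at least 2-fold lower, 1 of 8 against 32.6% of all genes, and ranked 1509th from the lowest.

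**Figure D1:**
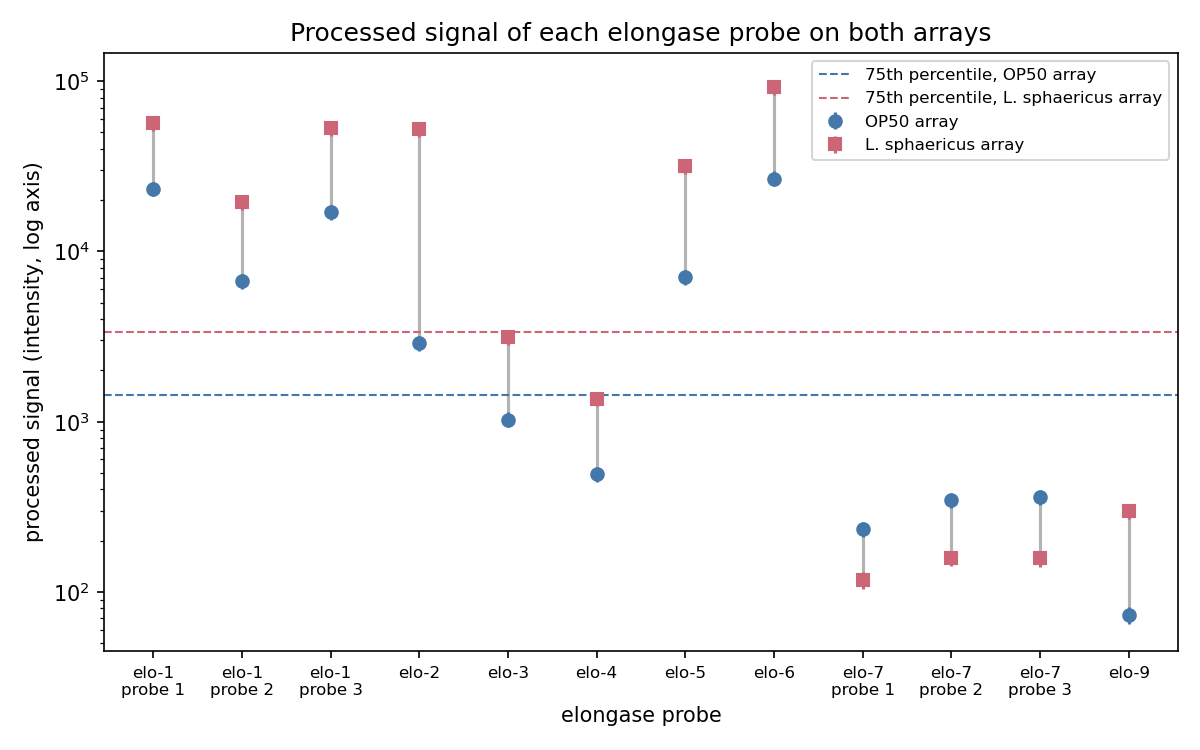
Processed signal (log axis) of the 12 elongase probes on the OP50 array (circles) and the L. sphaericus array (squares), 1 array per diet, with the scanner's error as bars, mostly smaller than the symbols, and each array's 75th percentile as a dashed line. The signal is higher on the L. sphaericus array for 9 probes, most of all for elo-2 (2894 against 52280), and lower for the 3 probes of elo-7.

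The genes of branched-chain elongation were both on the higher side but under 2-fold. For elo-5 the signal was 7048 ± 705 on the OP50 array and 31689 ± 3169 on the L. sphaericus array, a scaled difference of 0.94 (1.92-fold), just inside the 2-fold limit. For elo-6 it was 26808 ± 2681 and 92148 ± 9215, a scaled difference of 0.56 (1.47-fold). The 2 genes were 0.39 apart, a gap of less than 2 technical SDs, each SD of a gap between genes being 0.21.

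For elo-1, which acts in polyunsaturated fatty acid elongation, the 3 probes had signals of 23382, 6713 and 16976 on the OP50 array. The same probes gave 56578, 19453 and 52821 on the L. sphaericus array. Each was 2.42 to 3.11 times brighter there before scaling, and after it the gene's difference was 0.31 ± 0.19 (SD over 3 probes). Its probes ranged from 0.05 to 0.41, the lowest of them within the scanner's error of 0.20 for a difference between 2 spots.

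The remaining members had 1 probe each. The signal of elo-3 was 1030 on the OP50 array and 3143 on the L. sphaericus array, a scaled difference of 0.38. That of elo-4 was 494.9 and 1366, a difference of 0.24, close to the scanner's error of 0.20 for a difference. The elo-4 difference was 0.05 with normexp background correction and 0.04 with the 75th percentile over detected probes. It was 0.64 with quantile normalization, 0.65 with loess centring and 1.46 with no scaling. For elo-9 the signals were 73.4 ± 8.5 and 297.8 ± 30.5, a scaled difference of 0.80, and the OP50-fed value was 4.68 times the lowest signal well above background. With this scaling all 3 genes were on the higher side and under 2-fold. The value of elo-9 was 0.17 with normexp background correction, and it passed 2-fold at 1.47 with quantile normalization, 1.62 with loess centring and 2.02 with no scaling.

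The family therefore held 2 genes far apart and 6 close together. The outer members, elo-2 and elo-7, were separated by 5.30 log2 units, a 39.5-fold difference in their ratios, and this gap is the same for any constant scaling of an array. Methods that move genes unequally made it smaller. With quantile normalization elo-2 was at 2.91 and elo-7 at −1.72. With loess centring they were at 2.75 and −1.57, and with normexp background correction at 2.96 and −2.05. The other 6 lay between 0.24 and 0.94, in the order elo-5, elo-9, elo-6, elo-3, elo-1 and elo-4 from the highest. No neighbouring pair in that run was more than 2 technical SDs apart, the widest gap being 0.24 between elo-9 and elo-6. By contrast, elo-2 lay 2.01 above elo-5, and elo-7 lay 2.59 below elo-4. Over all 8 genes the median difference was 0.47, against −0.20 for all measured genes, and 7 of the 8 were above 0, against 45.7% of all measured genes. The order of the 6 inner genes was not kept by methods that move genes unequally. With quantile normalization elo-9 led them at 1.47, with elo-5 next at 0.89. With loess centring elo-9 was at 1.62, with elo-6 next at 0.83. Those gaps were wider than 2 technical SDs.

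**Figure D2:**
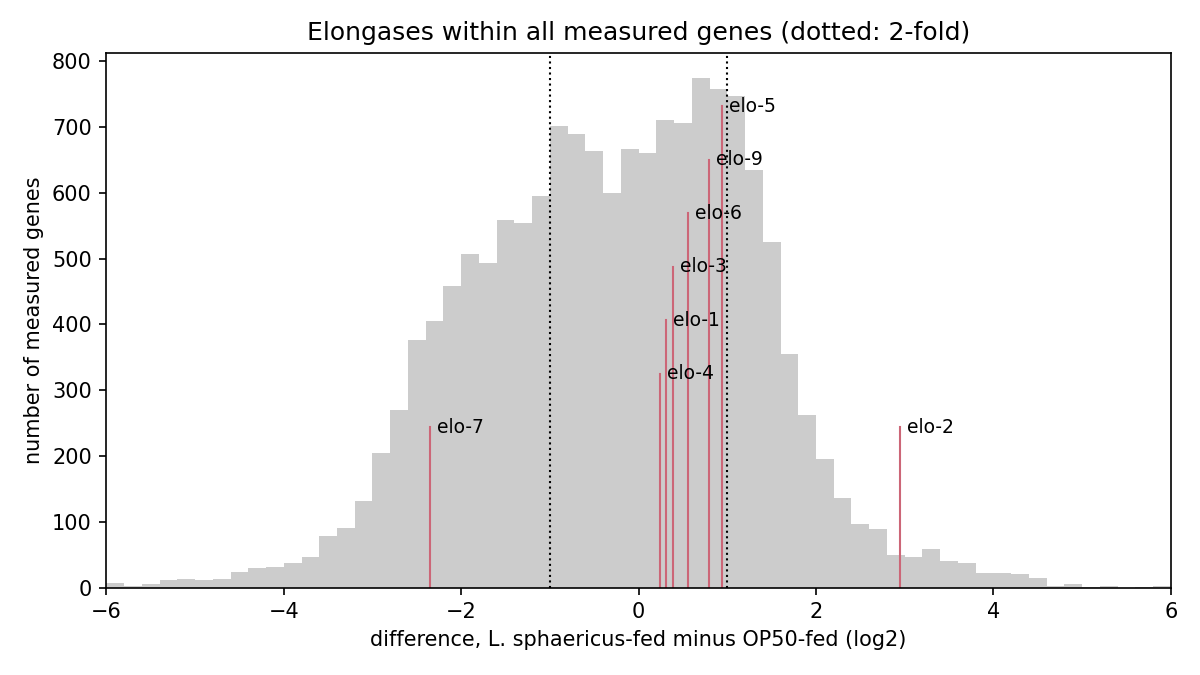
Number of measured genes by their difference between diets (log2, bins of equal width, 15301 genes, of which 44 lie beyond the axis), with a vertical line for each of the 8 elongases and dotted lines at 2-fold; the height of a line carries no value. The 6 others lie between 0.24 and 0.94, while elo-2 lies at 2.95 and elo-7 at −2.35.

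How many elongases passed 2-fold depended on how the arrays were scaled. A constant scaling moves all genes together. The median over all genes moved by 0.64 with scaling on the median of the probes, by 0.87 with scaling on cytosolic ribosomal protein genes and by 1.23 with no scaling. With median scaling, 5 of the 8 elongases were at least 2-fold higher and 1 lower, against 37.9% and 20.8% of all genes. With ribosomal protein gene scaling, 7 were higher and 1 lower, against 42.8% and 16.9%. With no scaling, the counts were again 7 and 1, against 50.6% and 11.6%. Other methods moved genes unequally. With quantile normalization and with loess centring elo-9 joined elo-2 past 2-fold, while elo-1, elo-2 and elo-5 were lower than with the 75th percentile. With normexp it was elo-5, at 1.14, that joined elo-2. The share of higher genes among all 2-fold genes was 40.4% with the 75th percentile, 64.6% with the median, 50.5% with quantile normalization, 49.7% with loess centring, 71.7% with ribosomal protein gene scaling and 81.4% with no scaling. Under each of these, elo-2 was the highest elongase and at least 2-fold higher, elo-7 was at least 2-fold lower, and the sign of every measured elongase stayed as given above. The difference of elo-2 ranged from 2.75 to 4.18 over the 12 alternatives and that of elo-7 from −2.55 to −1.13 over the 11 that measured it. Relative to the median of all genes with the 75th percentile, elo-1, elo-3, elo-4, elo-5, elo-6 and elo-9 were 0.50, 0.58, 0.43, 1.14, 0.75 and 0.99 higher. That median depended on brightness. With only probes at least as bright as the median kept, it was 0.32, beside 0.31 for elo-1 and 0.38 for elo-3, and 4 of 5 measured elongases were above it. With quantile normalization and loess centring it was 0.10 and 0.09, beside 0.20 and 0.21 for elo-1.

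**Figure D3:**
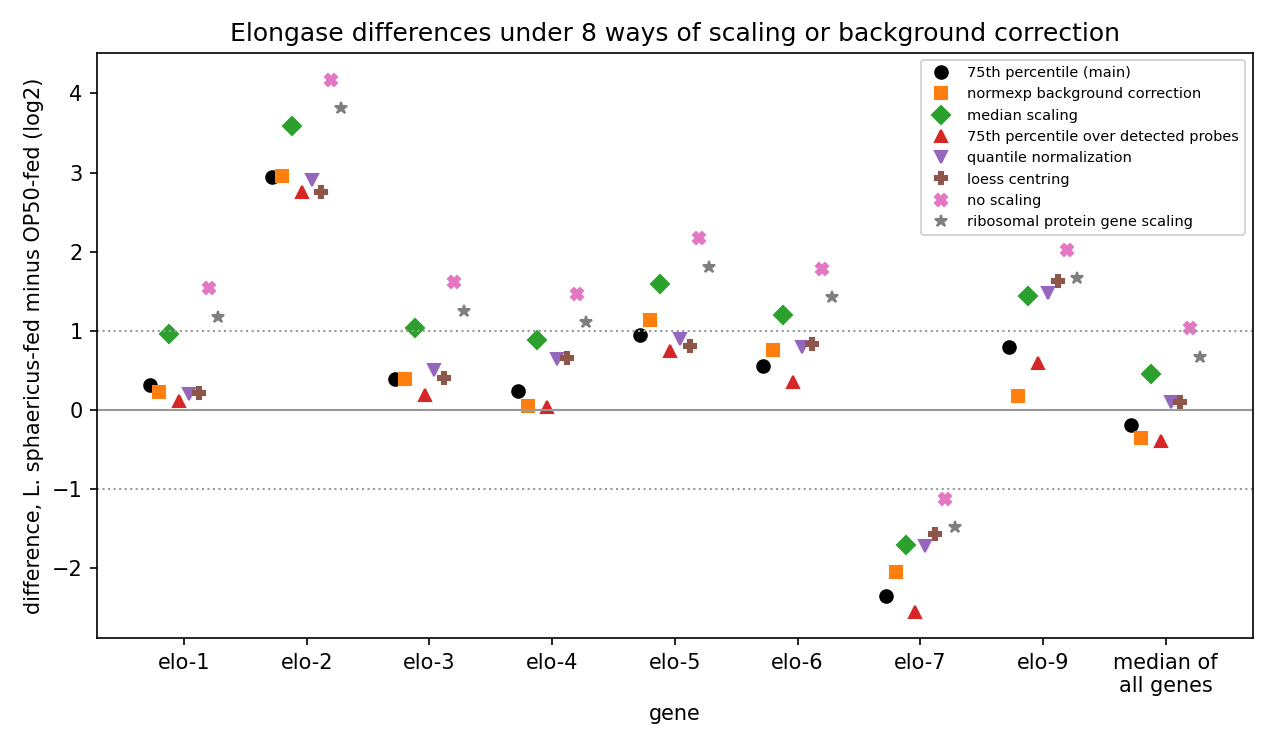
Difference between diets (log2) of each measured elongase and of the median over all measured genes under 8 ways of scaling or background correction, 1 symbol per setting, with dotted lines at 2-fold. The points under constant scalings spread as the all-gene median does, while under quantile, loess and normexp the genes move unequally. With loess the all-gene median rises from −0.20 to 0.09, elo-9 from 0.80 to 1.62 and elo-7 from −2.35 to −1.57. In the same setting elo-1, elo-2 and elo-5 fall. In each setting elo-2 stays above 2.7 and elo-7 below −1.1.

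Some family members sit near each other on chromosome IV in the RefSeq gene table of assembly WBcel235. The genes elo-1 (F56H11.4) and elo-7 (F56H11.3) are neighbours with 0 protein-coding genes between them, yet their differences were 0.31 and −2.35, which is 2.66 log2 units apart. In elo-5 (F41H10.7) and elo-6 (F41H10.8), with 3 protein-coding genes between them, the differences were 0.94 and 0.56. The genes elo-2 (F11E6.5) and elo-3 (D2024.3) also lie on chromosome IV, elo-4 (C40H1.4) and elo-8 (Y47D3A.30) on III and elo-9 (Y53F4B.2) on II. The array design cites an older build (ce4, WS170), so no coordinates are given.

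The enzymes that finish each elongation cycle lay close to the scaling point or moderately above it, and 0 of 3 were 2-fold apart, beside 22.1% of all genes higher and 32.6% lower. With median, quantile, loess and ribosomal scaling 1 of the 3 was at least 2-fold higher, and with no scaling all 3. The shares of all genes higher were 37.9%, 26.0%, 24.7%, 42.8% and 50.6% in that order. The ketoacyl-CoA reductase gene let-767 had signals of 41069 and 82473 on the OP50 and L. sphaericus arrays, a scaled difference of −0.22. The dehydratase gene hpo-8 was at −0.07 ± 0.02 (SD over 3 probes). Both signs turned with median, quantile, loess, ribosomal and no scaling. The enoyl-CoA reductase gene art-1 was at 0.87 ± 0.16 (3 probes). Upstream of the cycle, the acetyl-CoA carboxylase gene pod-2, which makes malonyl-CoA, was at 0.57, and the fatty acid synthase gene fasn-1 at 0.67 ± 0.34 (2 probes). Neither passed 2-fold, and both reached it with median scaling, beside 37.9% of all genes higher.

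Desaturases, which put double bonds into the same chains, lay on the other side. Of 6 measured genes, 5 were at least 2-fold lower and 0 were higher by that much, beside 32.6% and 22.1% of all genes. Their median was −1.15 relative to all genes, and that of the elongases 0.67. With median scaling 2 of the 6 were lower by 2-fold, and with no scaling 1, beside 20.8% and 11.6% of all genes. The lowest were fat-3, which acts early in polyunsaturated fatty acid synthesis, at 7.18-fold lower (signals 77270 and 25180), and fat-5, which desaturates palmitic acid, at 4.05-fold lower (−2.02 ± 0.06, 4 probes). The exception was fat-7, which encodes a stearoyl-CoA desaturase. Its signal was 20.5 on the OP50 array, not well above background, and 25029 on the L. sphaericus array, at least 521-fold higher. A lower bound here is the normalized signal on the bright array set against the dim probe's own value or the lowest value well above background, whichever is higher. Both elo-2 and fat-7 act on the saturated chain, elo-2 making stearic acid and fat-7 desaturating it, and both were higher on the L. sphaericus array, while fat-6, the other stearoyl-CoA desaturase gene, was at −0.57 ± 0.24 (3 probes), a sign that turned with median, ribosomal and no scaling. Whether a probe of one stearoyl-CoA desaturase gene also binds transcripts of the other was not tested. Nor was it tested whether a probe of one elongase gene binds transcripts of another.

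Genes around the branched-chain precursors of ELO-5 and ELO-6 were mostly on the higher side. Of 7 measured, 4 were at least 2-fold higher and 0 were lower by that much, beside 22.1% and 32.6% of all genes, and the list's median was 1.20 relative to all genes. It was 0.59 with loess centring, 0.70 with quantile normalization and 0.69 with bright probes alone. The highest was dbt-1, which encodes the acyltransferase subunit of the branched-chain keto acid dehydrogenase, with signals of 1284 and 12390 and a 4.13-fold scaled difference. Next was ivd-1 at 3.47-fold (1.80 ± 0.15, 2 probes). It encodes isovaleryl-CoA dehydrogenase, which breaks down a leucine-derived precursor and does not supply it. The keto acid dehydrogenase genes bckd-1B and bckd-1A were at 1.497 ± 0.31 (3 probes) and 1.004 ± 0.20 (4 probes). With the brightest probe of each gene, 2 of the 7 were at least 2-fold higher, and with median scaling 6, beside 21.9% and 37.9% of all genes. The acyl-CoA synthetase gene acs-1, known to act in branched-chain fatty acid metabolism, was at 0.68.

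**Figure D4:**
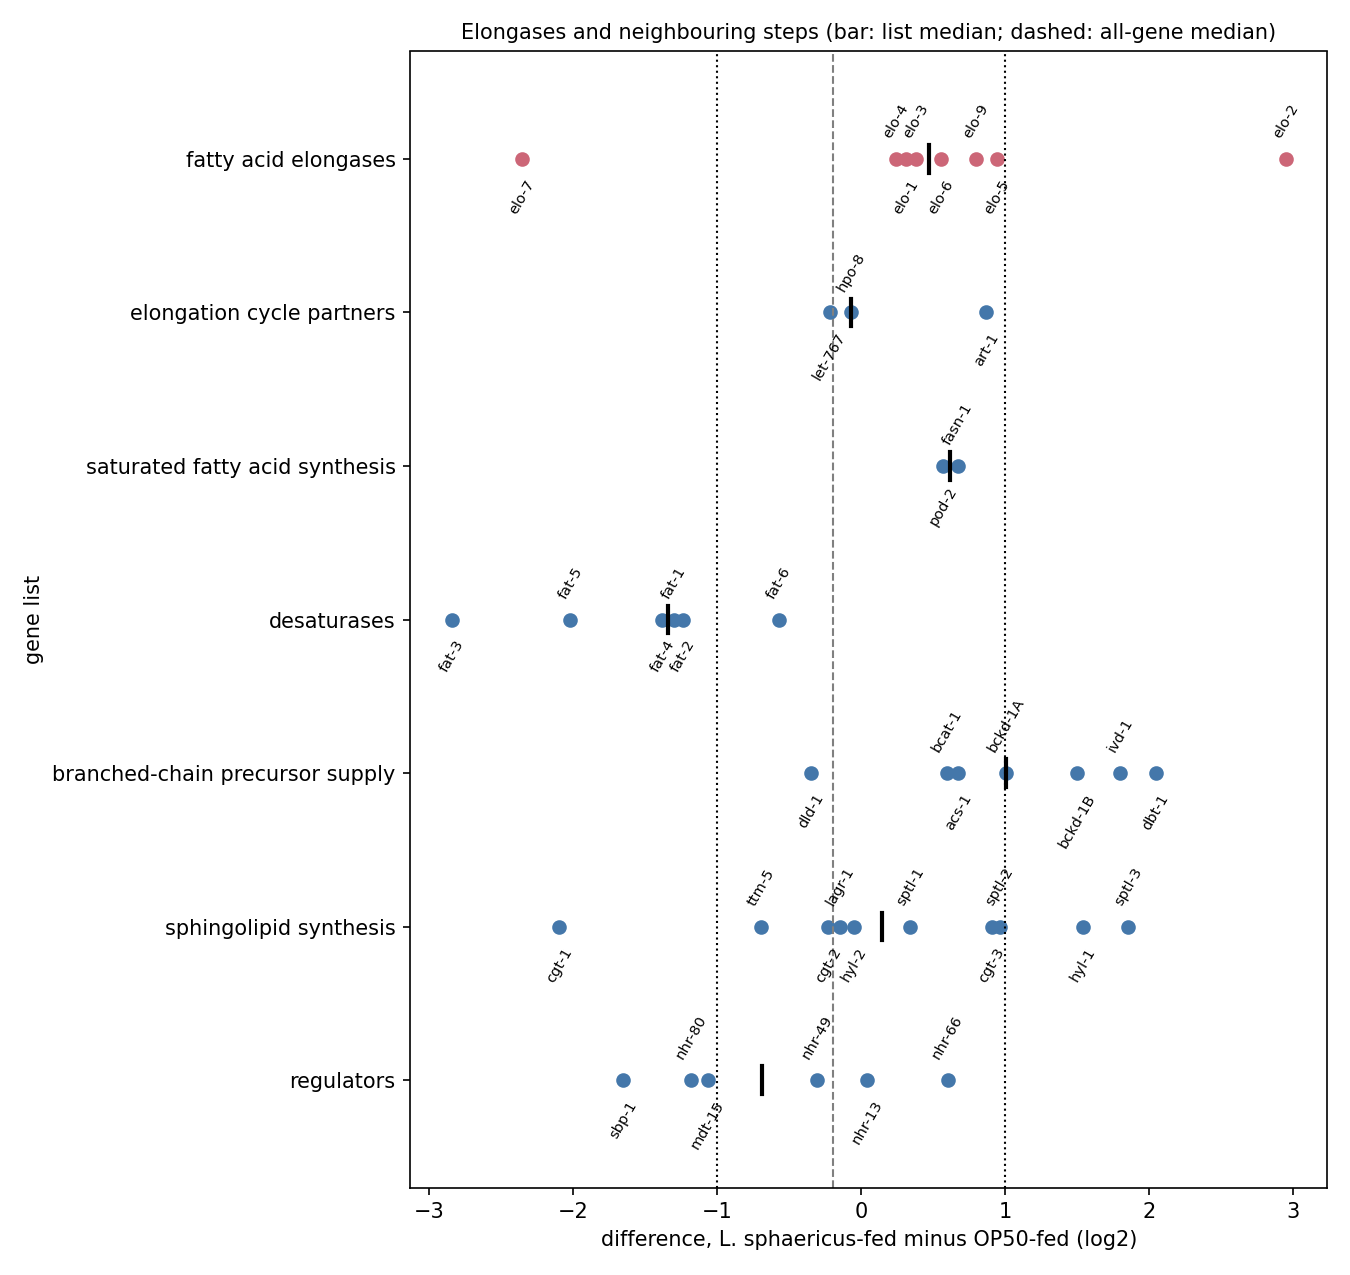
Difference between diets (log2) of each measured elongase (top row) and of the genes of 6 related lists, 1 point per gene, with a short bar at each list's median, a dashed line at the median of all measured genes (−0.20) and dotted lines at 2-fold. Desaturases lie to the left, branched-chain precursor genes mostly to the right, and fat-7 is not drawn because it was not well above background on the OP50 array.

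Sphingolipid synthesis uses long and branched acyl chains, and its 10 measured genes were spread on both sides, 2 at least 2-fold higher and 1 lower (median 0.34 relative to all genes), beside 22.1% and 32.6% of all genes. The serine palmitoyltransferase gene sptl-3 was 3.62-fold higher (1.85 ± 0.18, 2 probes) and the ceramide synthase gene hyl-1 2.90-fold higher (1.54 ± 0.07, 3 probes). The ceramide glucosyltransferase gene cgt-1 was 4.28-fold lower. With median scaling the counts were 4 and 1, beside 37.9% and 20.8% of all genes, and with no scaling 7 and 0, beside 50.6% and 11.6%. Among 6 regulators of fat metabolism, 3 were lower by at least 2-fold and 0 higher, beside 32.6% and 22.1% of all genes. With median scaling 1 of them was higher and 1 lower, beside 37.9% and 20.8% of all genes. With ribosomal protein gene scaling 1 of them was higher and 0 lower, beside 42.8% and 16.9%. With no scaling 2 of them were higher and 0 lower, beside 50.6% and 11.6%. Their median was −0.49 relative to all genes, and −0.93 with quantile normalization, −1.04 with loess centring and −1.01 with bright probes alone (those at least as bright as the median). The lowest were sbp-1, the worm's SREBP gene, at 3.14-fold lower and the nuclear hormone receptor gene nhr-80 at 2.27-fold lower. The sign of sbp-1 held in all 12 settings run on measured probes, and that of nhr-80 turned with no scaling.

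Markers of several tissues also differed between the arrays, and their part in the elongase differences was not tested. Of 6 intestine markers, the tissue in which much of the worm's fat metabolism takes place, 1 was at least 2-fold higher and 1 lower. All counts of markers stand beside 22.1% of all genes higher and 32.6% lower. The summed intestine level, in units of each array's 75th percentile signal, was 43.8 on the OP50 array and 46.3 on the L. sphaericus array. The median of the intestine markers was 0.05 relative to all genes, from ges-1 at −1.51 to act-5 at 1.06. In the oocyte and yolk list, 9 of 10 measured markers were at least 2-fold higher, with summed levels of 77.9 and 378.8, though the 2 probes of vit-4 and of vit-5 lay far apart (SD 2.98 and 3.37). Most of these sums came from the vit genes, so they do not measure oocyte RNA alone. The differences of vit-1, vit-2, vit-4, vit-5 and vit-6 were 8.08, 0.46, 3.80, 3.01 and 4.05. Those of rme-2, oma-1, oma-2, puf-5 and chs-1 were 1.90, 2.87, 3.26, 2.32 and 3.16. Sperm markers were lower in 6 of 7, with summed levels of 8.06 and 2.77, and neuron markers in 5 of 7, with 61.5 and 24.4. Epidermis markers were higher in 3 of 5 (12.6 and 28.6), and 0 of 5 muscle markers were 2-fold apart (32.1 and 19.4). Early embryo markers had 2 higher and 1 lower of 3 measured. Their summed levels, 1.07 and 4.06, include all 6 listed genes and came mostly from pal-1. Its signals were 1404 and 13211, beside 49.8 and 252.7 for end-3.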

How the data were processed

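Total RNA of the 2 samples was labelled with Cy3 from 0.5 µg and hybridised to 1-colour arrays, per the labels' protocols. The authors deposited each spot's intensity, its error and flags of the scanner software, made with Agilent Feature Extraction 11.0.1.1 per the file headers, which also place both arrays on 1 slide in 1 scan. Flags are other deposited quantities and not levels. The deposited series table holds the same intensity, unscaled, within 0.01 log2 for 43567 and 43571 of 43579 probes, with column medians of 246.7 and 369.0.

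Control spots and 36 outlier spots were left out, and 0 spots were saturated. The log2 processed signal, averaged over spots of a probe, was reduced by each array's 75th percentile. Measured probes (31043 of 43579) were well above background on both arrays. A gene's value is the median difference over its measured probes. Systematic names matched RefSeq WBcel235 for 34298 probes (19807 genes), leaving 9281 unnamed. The procedure was run on simulated data in which few genes changed, equally up and down, unlike these data. That run therefore does not favour any scaling over the others.

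With no replicate, called means at least 2-fold. All elongase probes are named, and of each pathway list the 2 members furthest up and down past 2-fold, or the 2 brightest. The members and lists were chosen with earlier results of these data known, and fat-6, acs-1, art-1, bckd-1A and bckd-1B were named after their values were seen. The normexp alternative used median spot signals (limma 3.58.1, offset 50), loess a span of 0.3 (statsmodels 0.14.6). The number of arrays limits the precision.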

Additional observations from a re-analysis of the deposited data

How the results depend on the processing

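Alternatives numbered 12 for scaling, background correction, filter, probe summary and source, beside thresholds of 1.5-fold and 3-fold. The number of elongases at least 2-fold higher, 1 with the 75th percentile, was 2 with normexp, quantile and loess normalization (18.7%, 26.0% and 24.7% of all genes), 5 with median scaling, 7 with ribosomal protein gene scaling and 7 with no scaling, and 3 past 1.5-fold, beside 32.5% of all genes. The number at least 2-fold lower, 1, became 0 when only probes at least as bright as the median were kept, where elo-4, elo-7 and elo-9 are not measured. The median relative to all genes, 0.67, was 0.95 without the filter on dim probes and 0.24 with the bright probes alone, both of which change the genes tested. The other alternatives moved these results by less than 1.5 times, or by less than the SD over repeated spots. Of 93 single elongase values over the 12 alternatives, 93 kept their sign, 40 were higher and 21 lower than given. The rest equalled the values given. A gene with 1 probe cannot move when only the filter or the probe summary changes, so its sign there was fixed beforehand. Some kept signs rest on values below the SD over repeated spots (0.15). These were elo-4 at 0.04 with the 75th percentile over detected probes and 0.05 with normexp, and elo-1 at 0.05 with the brightest probe. The counts of 2-fold genes over all genes were 3382 higher and 4986 lower, against 5798 and 3177 with median scaling, 6552 and 2583 with ribosomal scaling, 7749 and 1770 with no scaling, and 2464 and 1917 with the bright probes alone. Past 3-fold they were 1510 and 3321. No paired analysis was possible because each diet has 1 array. No replicate could be left out for the same reason. Single probes carry 6 of the 8 elongases, and the dim signals of elo-7 and elo-9 limit their folds.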

Other observations

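The protein-coding genes next to each elongase were looked up after the elongase values were known. F56H11.2, next to elo-7 on chromosome IV, was at −2.30 on 1 probe, beside −2.35 for elo-7. On the other side of elo-1, ndua-5 was at 0.26, beside 0.31 for elo-1. F41H10.3, next to elo-5, was at 0.77 (2 probes), beside 0.94 for elo-5. Whether a probe of an adjacent gene also reads elongase transcripts was not tested. F41H10.2, between elo-5 and elo-6, was at −3.38 (1 probe). The other 2 genes between them have no value, F41H10.1 having no matched probe and F41H10.12 being dim on both arrays. F11E6.6, next to elo-2, was at −2.66 (1 probe), against 2.95 for elo-2. Beside elo-3 (0.38), gstk-2 was at −2.24 and D2024.4 at 1.09 (2 probes). Beside elo-4 (0.24), ufc-1 was at 0.16 and emb-9 at 0.69. Next to elo-9 (0.80) lay Y53F4B.1 at −1.01 and pole-4 at 1.58, and htp-1, next to elo-6 (0.56), was at 1.4974. Apart from D2024.4, these have 1 probe each. F11E6.4, next to elo-2, and Y47D3A.34, next to elo-8, have no matched probe. The gene tbx-37, also next to elo-8, was above background on the L. sphaericus array only, with a dim signal there (85.3). The signs of F56H11.2, ndua-5, F41H10.3, F41H10.2 and F11E6.6 held in the 12 settings run on measured probes, as did those of gstk-2, D2024.4, emb-9, pole-4 and htp-1 in the settings that measured them. The sign of Y53F4B.1 turned with no scaling and that of ufc-1 with the 75th percentile over detected probes.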
